A study of Rattus norvegicus with 16 samples.

Results

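The comparison described here set the injured rat sciatic nerve at 7 days post injury (DPI) against the injured nerve at 3 DPI, 4 arrays against 4, out of 16 arrays in the series. All animals were male Sprague Dawley rats, injured at 6 weeks of age. In each, a segment of the right sciatic nerve was resected and the distal end was tucked away from the injury site to keep axons from growing back. The distal nerve was collected 3 or 7 days later, and the uninjured sciatic nerve of the other side (contralateral) was collected at both times, which gave the 2 further groups of 4 arrays. The arrays of the 2 days came from different animals, the labels call the 4 arrays of a group biological replicates without saying whether nerves were pooled, and no group tells days after injury apart from days of ageing except the contralateral nerves. The model shows a distal stump without regrowing axons, and it therefore holds no comparison with a nerve that is being reinnervated. Whole nerve was homogenised, so a lower value can come from fewer cells of a type or from less RNA per cell, and the 2 cannot be told apart.

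After a nerve is cut, the axons beyond the cut break down, a process named Wallerian degeneration. The Schwann cells that wrapped those axons stop making myelin, divide and become repair Schwann cells, which break down their own myelin and release trophic factors. Macrophages enter the nerve and clear myelin debris, while fibroblast-like cells of the endoneurium, perineurium and epineurium, the connective tissue layers of a nerve, divide and lay down matrix. Day 3 and day 7 both lie within this period, and the comparison asks what differed between them.

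Values are log2 expression levels from RMA (robust multi-array average), so a difference of 1 is a 2-fold difference, and over all 18166 genes and 16 arrays the median level was 6.96, with quartiles at 5.73 and 8.28. Because each gene is read by its own probes, levels are compared between arrays and not between genes. As an exception, a few levels are described as low beside these quartiles. In the text, a gene rose or fell where its adjusted p in limma was under 0.05, and it was called where it also differed at least 2-fold. Changes are given as 7 DPI minus 3 DPI on the log2 scale, with the standard error (SE) of the fit and 4 arrays per group. Array values are given in the order of replicates 1 to 4, which carries no meaning beyond the name.

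Between 3 and 7 DPI, 58 of 18166 genes (0.319%) were called in the injured nerve, 22 higher (0.121%) and 36 lower (0.198%). By the adjusted p alone, 406 genes rose (2.23%) and 324 fell (1.78%), and 730 (4.02%) passed in either direction. Counts of genes that rose or fell in the lists and families below are to be read beside these shares. The median change over all genes was -0.00, and the arrays of the 2 days did not overlap for 2182 genes (12%), a share that includes many small differences. Of the 58 called genes, 55 had arrays that did not overlap, which the call itself favours, 8 were over 4-fold lower and 1 was over 4-fold higher. The members just inside the fold minimum were Esm1 (1.01), Tmlhe (1.01), Ndp (-1.01), Ptn (1.01) and Gamt (1.02), and those just outside it were Slc39a12 (-1.0), Epas1 (-0.98), Angpt1 (0.97), Sec11c (-0.97) and Pabir2 (-0.97).

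The contralateral nerves went through the same days without a cut, and there 2 genes were called (0.011%), Ankef1 and Depdc1, both higher at 7 DPI. None of the 58 genes was called in the contralateral nerves or passed an adjusted p of 0.05 there (13 of all genes did, 0.0716%), and the largest contralateral change among them was 0.68, for Cilp. With so low a share over all genes, a count of none does not set the 58 apart. At an unadjusted p under 0.05, 2029 of all genes (11.2%) passed in the contralateral nerves, against 3138 (17.3%) in the injured nerves. When the 2 changes were tested against each other in the same limma fit, 45 of the 58 genes differed between injured and contralateral nerves, against 1.72% of all genes. The 58 were chosen by the injured change, which is part of this difference. A share above that of all genes is therefore built in and cannot show that the changes are particular to injury. The 2 nerves of a day may come from the same animals, but the labels do not link them, so this test had no block for the animal. For 13 genes the difference between the nerves did not pass, namely Cabcoco1, Cilp, Cxcl9, Esm1, F13a1, Gbp6, Hmcn1, Kcna1, Mcoln3, Ms4a4c, Slitrk6, Sncg and Spon1. Over all genes, 70 were called by this test (0.385%), 21 with the higher change in the injured nerve (0.116%) and 49 with the lower (0.27%).

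**Figure D1:**
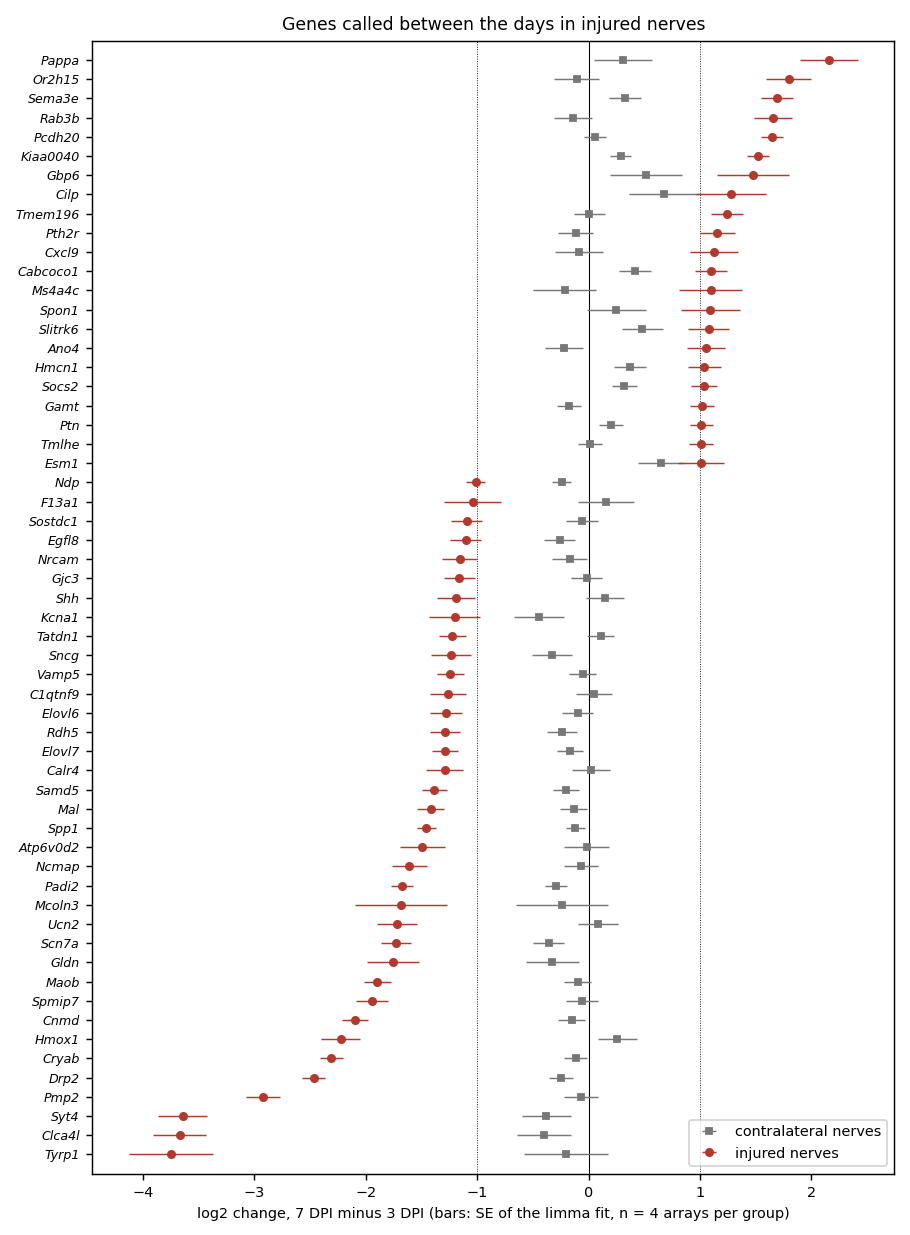
Log2 change from 3 to 7 DPI (horizontal axis, with SE) for the 58 called genes in injured nerves (red circles) and in contralateral nerves (grey squares), 4 arrays per group, with dotted lines at a 2-fold change. The injured changes run from -3.75 for Tyrp1 to 2.16 for Pappa, while no contralateral change exceeds 0.68 in size.

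The 16 arrays were alike in overall quality. Array medians over all probe sets ran from 6.27 to 6.40, and within a group the arrays correlated at 0.982 to 0.989. Schwann cell and fibroblast markers identified the tissue in both injured groups, with S100b, a calcium-binding protein of Schwann cells, between 11.60 and 12.29 and Dcn, the proteoglycan decorin of connective tissue, between 13.03 and 13.19. At 7 DPI 2 arrays stood apart for other reasons. Replicate 1 had a score for 10 skeletal muscle genes of 2.05, against -0.33, 0.62 and -0.26 in replicates 2 to 4 and -0.27 to 0.55 at 3 DPI. Replicate 4 had a score of 1.40 for 28 interferon response genes, followed by replicate 1 at 0.77, against -0.03 to 0.51 at 3 DPI. A score is the mean log2 level of a list relative to its mean on the 8 contralateral arrays. Without these 2 arrays, a choice made after seeing the data, 11 of the 58 genes were no longer called, and their values without the arrays are given where each gene is described.

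The 36 genes called lower fell into 3 kinds when their level at 3 DPI was set against both contralateral means, a grouping made after the values were seen. At 3 DPI, 12 were more than 2-fold above both contralateral means, so that their fall led back towards the uninjured level. Another 13 were already more than 2-fold below the contralateral means at 3 DPI and fell further. The remaining 11 lay within 2-fold of a contralateral mean at 3 DPI.

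Genes high at 3 DPI and lower at 7 DPI included those with the largest changes of the comparison. Tyrp1, which encodes a melanosomal enzyme of melanin synthesis, measured 11.40, 12.01, 11.84 and 12.03 on the 3 DPI arrays and 7.60, 8.61, 7.57 and 8.51 on the 7 DPI arrays. Every 7 DPI array lay far below every 3 DPI array and still above the contralateral arrays, which ran from 5.44 to 7.25. Tyrp1 fell by 3.75 ± 0.38 (13.4-fold, adjusted p = 1.93e-05). Other genes of pigment cells did not share this course. Among 6 that were looked up after Tyrp1 was seen (Tyr, Dct, Pmel, Mlana, Slc45a2 and Mitf) none passed an adjusted p of 0.05, and their changes ran from -0.35 to 0.13. Tyr, the enzyme that starts melanin synthesis, measured between 3.53 and 3.98 on the injured arrays.

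Clca4l, of a family of secreted regulators of calcium-activated chloride channels, measured 9.08, 8.86, 9.55 and 10.10 at 3 DPI and 5.54, 5.96, 5.70 and 5.70 at 7 DPI. The 7 DPI arrays fell within the contralateral range of 4.85 to 5.96 (change -3.67 ± 0.24, 12.7-fold, adjusted p = 9.80e-08). Syt4, a synaptotagmin of secretory vesicle membranes, measured 8.29, 9.26, 9.22 and 9.70 at 3 DPI and 5.41, 5.78, 5.43 and 5.27 at 7 DPI. It too lay inside its contralateral range, 5.14 to 5.99, on all 7 DPI arrays, and the change was -3.64 ± 0.22 (12.5-fold, adjusted p = 3.94e-08). Of 16 synaptotagmins measured, a family counted after Syt4 was seen, Syt4 was the only one that fell and Syt11 was the only one that rose, by 0.92 ± 0.14. Spmip7, a sperm microtubule protein, fell by 1.94 ± 0.14, from 7.59, 7.59, 7.54 and 8.06 to 5.71, 5.56, 6.13 and 5.62.

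Hmox1, heme oxygenase, which breaks heme down to biliverdin, iron and carbon monoxide, measured 10.24, 10.20, 10.62 and 10.79 at 3 DPI and 8.60, 7.79, 8.47 and 8.10 at 7 DPI. The groups did not overlap and the 7 DPI arrays remained above the contralateral range of 6.93 to 7.48 (change -2.23 ± 0.17, 4.68-fold, adjusted p = 1.01e-06). Of 23 measured genes of heme, iron and the oxidative stress factor Nrf2, 1 was called, 5 fell and 1 rose, with a median of -0.06. The others that fell were Nqo1, a quinone reductase (-0.95), Tfrc, the transferrin receptor (-0.83), and the ferritin chains Fth1 (-0.46) and Ftl1 (-0.25), and the one that rose was Gstm1, a glutathione transferase (0.33).

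Atp6v0d2 is a subunit of the V-ATPase, the proton pump that acidifies lysosomes, and is the form found in macrophages and osteoclasts. It measured 7.27, 8.15, 8.0 and 8.43 at 3 DPI and 6.58, 6.57, 6.53 and 6.20 at 7 DPI, without overlap (change -1.49 ± 0.20, adjusted p = 3.30e-04). Among 20 V-ATPase subunits, a family counted after seeing the data, 6 fell and none rose, with a median of -0.23 and 16 of 20 below 0. Besides Atp6v0d2 these were Atp6v1b2 (-0.65), Atp6v1e1 (-0.54), Atp6v1f (-0.43), Atp6v0a1 (-0.33) and Atp6v0c (-0.30). Of 22 genes of lipid uptake and the lysosome, 2 fell, Atp6v0d2 and the galectin Lgals3 (-0.41), and Apoe, an apolipoprotein that carries cholesterol, rose (0.43). None of 22 cathepsins, the proteases of the lysosome, rose or fell.

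Mcoln3, a cation channel of endosomes and lysosomes, fell by 1.68 ± 0.41 (adjusted p = 0.0299) on arrays that overlapped. The 3 DPI arrays read 9.79, 10.55, 7.78 and 8.75, and the 7 DPI arrays 7.39, 6.99, 7.53 and 8.22, so that replicate 4 at 7 DPI lay above replicate 3 at 3 DPI. Its call depended on single arrays and on the settings of the fit. Without replicate 1 or 2 at 3 DPI the change was -1.49 and -1.24, without replicate 1, 2 or 3 at 7 DPI it was -1.64, -1.50 and -1.68, and in each of these cases the adjusted p was 0.069 or above. Without replicates 1 and 4 at 7 DPI together (-1.96, adjusted p = 0.062) and fitted on the 8 injured arrays alone (adjusted p = 0.13) it did not pass either. The same held on all arrays with the trend and robust settings of limma (adjusted p = 0.055).

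The promoters of Tyrp1 and Mcoln3 are shown because both hold TCATGTG, the letters of the site that the MiT factors (Mitf, Tfeb, Tfec, Tfe3) are known to bind, a motif chosen after Tyrp1 was seen. The capitals mark that motif in Tyrp1, where its first base lies at -68 from the annotated start. In Mcoln3 they mark the motif on the other strand, at -159, and TGANTCA, the site of AP-1 factors, at -32. Windows run from 250 bases before to 50 after the RefSeq start on the assembly GRCr8, both on the + strand, chr5:100326875-100327174 for Tyrp1 and chr2:237668756-237669055 for Mcoln3.
Tyrp1: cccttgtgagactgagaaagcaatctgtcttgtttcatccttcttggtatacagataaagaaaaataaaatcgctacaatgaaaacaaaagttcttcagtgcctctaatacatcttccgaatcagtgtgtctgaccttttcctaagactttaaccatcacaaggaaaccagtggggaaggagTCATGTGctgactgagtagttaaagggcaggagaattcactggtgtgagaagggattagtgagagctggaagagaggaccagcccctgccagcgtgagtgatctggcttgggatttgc
Mcoln3: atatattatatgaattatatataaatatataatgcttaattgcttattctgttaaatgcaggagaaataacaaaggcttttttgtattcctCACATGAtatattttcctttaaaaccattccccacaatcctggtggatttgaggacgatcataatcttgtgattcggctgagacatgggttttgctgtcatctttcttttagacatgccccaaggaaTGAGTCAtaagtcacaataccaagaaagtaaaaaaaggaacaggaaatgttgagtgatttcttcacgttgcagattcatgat
TCATGTG was found on either strand in 2.87% of 14503 promoters of the same length, in 4 of the 25 promoters of genes called lower that could be matched (Mcoln3, Ncmap, Tyrp1 and Vamp5) and in none of the 18 of genes called higher. The count includes Tyrp1, after which the motif was chosen, so it is a description of letters and no comparison with the share over all promoters. No binding was measured.

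Ucn2 and Shh, both secreted signals, also fell from raised levels. Ucn2 encodes one of the urocortins, peptides of the corticotropin-releasing hormone family. Its arrays measured 11.10, 11.27, 11.43 and 11.35 at 3 DPI and 9.49, 9.65, 9.33 and 9.80 at 7 DPI, which placed the later nerves below every earlier one but well above the contralateral range of 6.01 to 6.93. The change was -1.72 ± 0.18 (3.30-fold, adjusted p = 2.35e-05). The Ucn2 promoter is shown for the AP-1 motif TGANTCA, marked in capitals at -167 (chr8:118515861-118516160, + strand, GRCr8), since repair Schwann cells are known for their use of the AP-1 factor c-Jun.
Ucn2: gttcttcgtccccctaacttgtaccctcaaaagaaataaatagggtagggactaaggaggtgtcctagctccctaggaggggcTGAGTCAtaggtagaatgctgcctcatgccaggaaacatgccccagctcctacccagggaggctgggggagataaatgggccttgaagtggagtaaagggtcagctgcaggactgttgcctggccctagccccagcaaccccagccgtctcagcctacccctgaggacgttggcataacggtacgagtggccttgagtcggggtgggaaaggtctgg
TGANTCA on either strand was in 6.39% of all promoters, in 4 of 25 of the lower genes (Clca4l, Mal, Mcoln3 and Ucn2) and in 2 of 18 of the higher genes (Ptn and Slitrk6). These counts too only describe letters, and a part of AP-1 factors in the change of Ucn2 was not tested. Of 20 immediate early and AP-1 genes, none fell and 2 rose, Jund (0.59) and Atf3 (0.51).

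Shh, the morphogen sonic hedgehog, which uninjured Schwann cells make little of and repair Schwann cells do make, measured 9.52, 8.90, 9.52 and 9.28 at 3 DPI and 7.68, 8.19, 8.42 and 8.16 at 7 DPI. The groups did not overlap, and at 7 DPI replicate 1 lay within the contralateral range of 7.43 to 7.97 and the other arrays above it (change -1.19 ± 0.17, adjusted p = 5.51e-04). Dhh, the related desert hedgehog of myelinating Schwann cells, moved the other way. It measured 7.90, 7.57, 7.26 and 7.45 at 3 DPI and 8.10, 8.64, 8.32 and 8.21 at 7 DPI, a rise of 0.78 ± 0.17 (adjusted p = 0.0165), while its contralateral change was -0.28. The direct target Gli1 fell by 0.32 ± 0.08 and the receptor component Smo changed by -0.07, which did not pass. Of the 10 hedgehog pathway genes measured, 2 fell and 1 rose.

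Nrcam is an adhesion molecule of the node of Ranvier. It measured 11.21, 11.24, 10.89 and 11.15 at 3 DPI and 9.82, 10.08, 10.38 and 9.60 at 7 DPI, against a contralateral range of 8.93 to 9.68 (change -1.15 ± 0.16, adjusted p = 3.44e-04). Its groups did not overlap. Without replicates 1 and 4 at 7 DPI the change was -0.90, under the fold minimum. C1qtnf9, a secreted relative of adiponectin (-1.26), and Tatdn1, a putative nuclease (-1.22), completed this kind, both without overlap between the days.

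**Figure D2:**
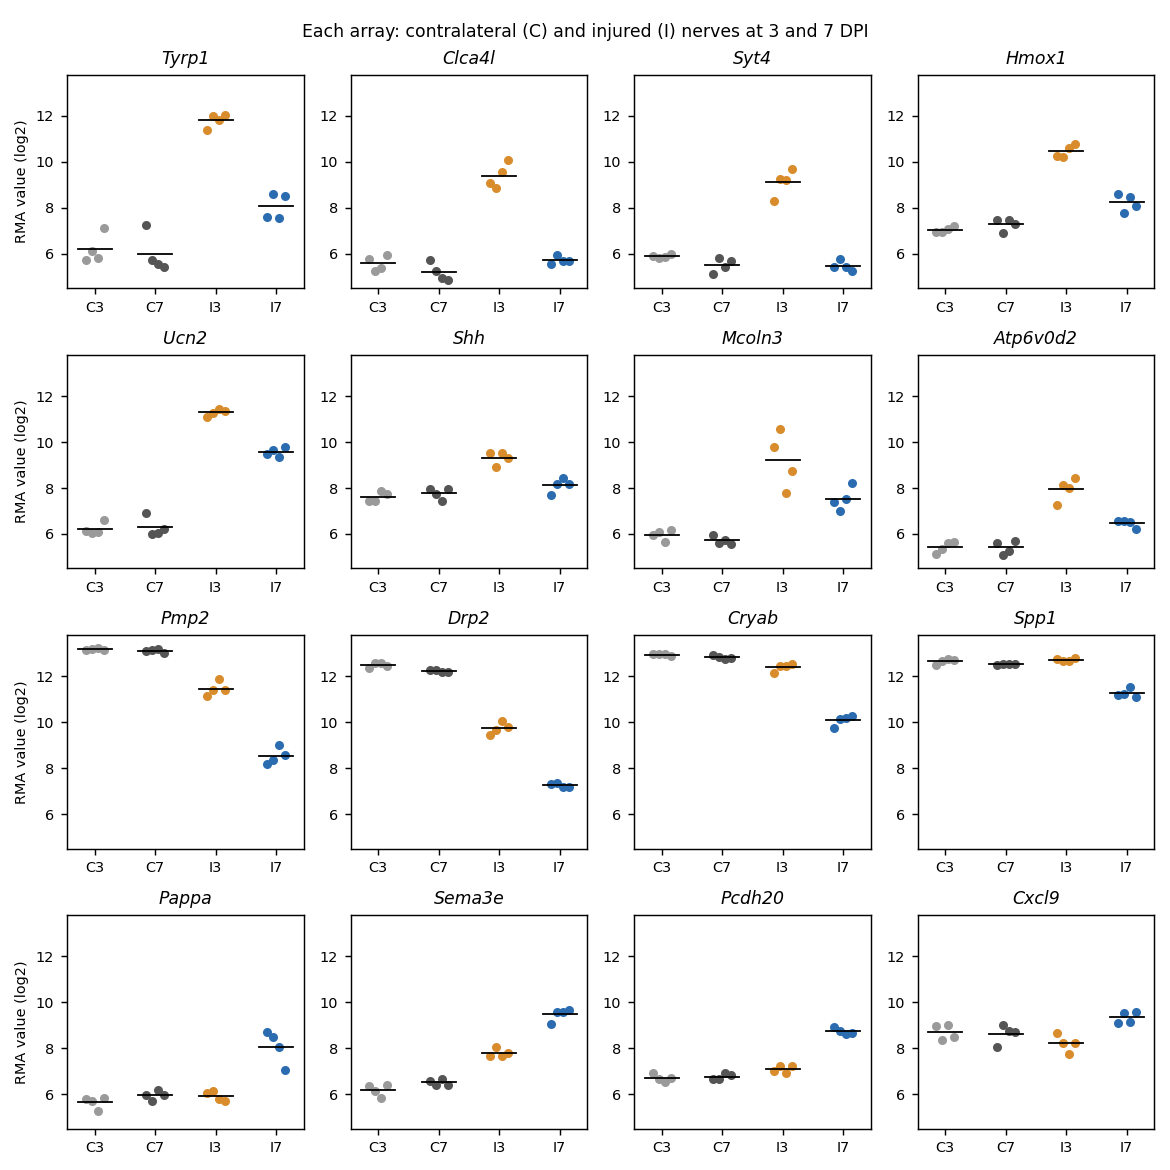
Log2 RMA level (vertical axis, the same in every panel) of 16 genes on each array of contralateral 3 DPI, contralateral 7 DPI, injured 3 DPI and injured 7 DPI nerves, each point 1 array and each line a group mean. Tyrp1, Clca4l and Syt4 drop by more than 3 units between the injured groups, and the injured 7 DPI arrays of Clca4l lie within the contralateral range of 4.85 to 5.96.

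Most myelin genes fell further after 3 DPI, and those called were already more than 2-fold below the contralateral nerve at 3 DPI. Of 16 myelin genes measured, 5 were called lower, a further 5 fell by less than 2-fold, 1 rose and 5 did neither, with a median change of -0.63 against -0.24 in the contralateral nerves and -0.00 over all genes in the injured nerves. The myelin score lay between -2.38 and -2.13 on the 3 DPI arrays and between -3.34 and -3.01 on the 7 DPI arrays, so the groups did not overlap.

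Pmp2, a fatty acid binding protein of peripheral myelin, measured 11.15, 11.39, 11.86 and 11.38 at 3 DPI and 8.18, 8.36, 9.01 and 8.56 at 7 DPI. The contralateral arrays ran from 13.01 to 13.24, so each injured group was below them and the later one by far (change between the days -2.92 ± 0.15, 7.57-fold, adjusted p = 1.07e-08). Drp2, a dystrophin relative that links periaxin to the Schwann cell's outer membrane, measured 9.43, 9.66, 10.06 and 9.78 and then 7.33, 7.35, 7.20 and 7.19. The arrays of the later day were close together, and Drp2 had the smallest adjusted p of the comparison (change -2.47 ± 0.10, 5.53-fold, adjusted p = 1.06e-09). Ncmap, a membrane protein of noncompact myelin, fell by 1.61 ± 0.16, and Mal, a proteolipid of compact myelin and lipid rafts, by 1.42 ± 0.12. Gldn, gliomedin, which gathers sodium channels at the node of Ranvier, fell by 1.76 ± 0.24, from 7.44, 7.59, 8.55 and 7.85 to 6.25, 6.17, 6.19 and 5.79.

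The myelin genes that fell by less than 2-fold were Prx, the scaffold protein periaxin (-0.77), Cldn19, a tight junction claudin of the Schwann cell (-0.70), Mbp, myelin basic protein (-0.67), Gjb1, a connexin of noncompact myelin (-0.60), and Pllp, plasmolipin (-0.55). In the contralateral nerves these genes changed by -0.41 (Gjb1) to -0.20 (Pllp). For none of them did the change differ between injured and contralateral nerves (limma, adjusted p of 0.27 or above). It differed for 5 of the 16 myelin genes, those called. Ugt8, which makes the myelin lipid galactosylceramide, rose by 0.46 ± 0.11, from 10.60, 10.25, 10.11 and 10.24 to 10.45, 10.85, 10.95 and 10.81, with overlap. Fa2h, Mag, Pmp22, Cnp and Cadm4 neither rose nor fell. Members of the list that were not called were named after their values were seen.

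**Figure D3:**
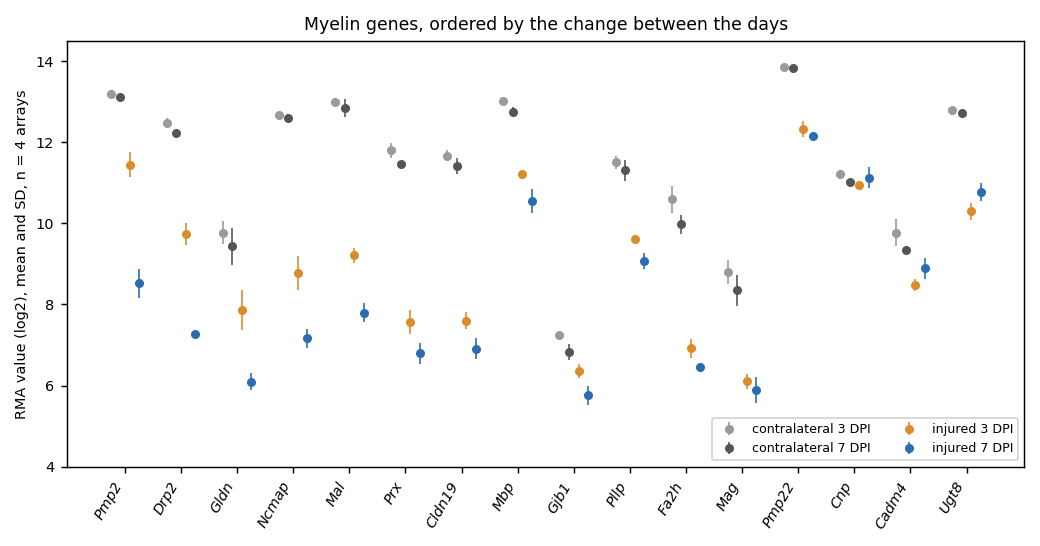
Mean log2 RMA level with SD (vertical axis) of the 16 myelin genes in the 4 groups, 4 arrays each. Pmp2 and Drp2 show a step down from contralateral to injured 3 DPI nerve and another to injured 7 DPI nerve, and Ugt8 is slightly higher at 7 DPI than at 3 DPI.

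Other genes called lower had varied levels at 3 DPI. Scn7a, a sodium channel relative of Schwann cells that do not form myelin, measured 10.18, 10.28, 10.68 and 10.62 at 3 DPI and 8.89, 8.51, 8.84 and 8.59 at 7 DPI, below a contralateral range of 11.82 to 12.52 (change -1.73 ± 0.14, adjusted p = 1.01e-06). Kcna1, a potassium channel subunit, fell by 1.20 ± 0.23, but did not pass without replicates 1 and 4 at 7 DPI (-0.91, adjusted p = 0.092). Gjc3, a connexin of Schwann cells, and Sncg, a synuclein, were within 2-fold of a contralateral mean at 3 DPI. Gjc3 fell by 1.16 ± 0.14, and by 0.99 without those arrays, and Sncg fell by 1.23 ± 0.18. Sostdc1, a secreted antagonist of BMP and Wnt signals, fell by 1.09 ± 0.14, and was under 2-fold without replicate 3 at 3 DPI (-0.91) or replicate 1 at 7 DPI (-1.0). Cnmd, chondromodulin, an inhibitor of blood vessel growth known from cartilage, measured 8.13, 8.48, 8.54 and 8.30 and then 6.09, 6.37, 6.38 and 6.23, from a contralateral range of 11.45 to 12.06 (change -2.10 ± 0.12). Samd5 (-1.38 ± 0.11) and Egfl8 (-1.10 ± 0.14) were also more than 2-fold below the contralateral means at 3 DPI and fell further.

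Lipid synthesis was split. The elongases Elovl7 and Elovl6, which lengthen fatty acids, were called lower, at -1.29 ± 0.12 and -1.28 ± 0.14. Elovl7 measured 7.16, 7.25, 7.28 and 7.30 at 3 DPI and 5.80, 6.22, 5.76 and 6.06 at 7 DPI, and Elovl6 measured 8.36, 8.10, 8.60 and 8.34 and then 7.44, 7.22, 6.75 and 6.87, while both lay above 11 on every contralateral array. In contrast, the desaturases Fads2 (0.83 ± 0.13) and Fads1 (0.45 ± 0.10), which introduce double bonds into fatty acids, and Srebf1, a transcription factor of lipid synthesis (0.46), rose. Among 18 genes of fatty acid and sphingolipid synthesis 2 thus fell, 3 rose and the median was 0.02. Of 18 cholesterol synthesis genes, 4 fell, Msmo1 (-0.51), Hsd17b7 (-0.40), Sc5d (-0.34) and Ebp (-0.31), none was called, and the median was -0.16.

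Several genes that fell had been near the uninjured level at 3 DPI. Cryab, alpha-B crystallin, a small heat shock protein of myelinating Schwann cells, measured 12.12, 12.46, 12.43 and 12.52 at 3 DPI and 9.74, 10.13, 10.18 and 10.25 at 7 DPI. The contralateral arrays ran from 12.77 to 12.97, so the fall between the injured groups was far larger than the gap at 3 DPI (change -2.31 ± 0.10, 4.95-fold, adjusted p = 1.25e-09). Maob, which oxidises monoamines in the mitochondrial outer membrane, measured 11.06, 10.81, 10.83 and 11.01 and then 8.60, 9.28, 9.09 and 9.16, against 11.22 to 11.51 in contralateral nerves. It fell by 1.90 ± 0.12, and its paralogue Maoa fell by 0.95 ± 0.08, from 10.82, 10.62, 10.87 and 10.96 to 9.84, 9.81, 9.91 and 9.92. Neither pair of groups overlapped.

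Spp1, osteopontin, a secreted matrix glycoprotein and cytokine, measured 12.76, 12.64, 12.65 and 12.81 at 3 DPI and 11.18, 11.25, 11.53 and 11.08 at 7 DPI. Replicates 2 and 3 at 3 DPI lay within the contralateral range of 12.48 to 12.74 and the other 2 just above it, and the 7 DPI arrays were all below it (change -1.46 ± 0.09, adjusted p = 3.94e-08). Padi2, which turns arginine into citrulline in proteins, fell by 1.67 ± 0.10. Vamp5, a vesicle SNARE protein (-1.24 ± 0.12), Calr4, of the calreticulin family (-1.29 ± 0.17), and Rdh5, a retinol dehydrogenase (-1.29 ± 0.14), were also lower on every 7 DPI array than on any 3 DPI array.

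Ndp, norrin, a ligand of the Wnt receptor family, fell by 1.01 ± 0.09, from 8.37, 8.43, 8.49 and 8.60 to 7.51, 7.36, 7.57 and 7.40. Without replicate 4 at 3 DPI, or replicate 2 or 4 at 7 DPI, its change was -0.97, -0.98 and -0.99. F13a1, the A chain of coagulation factor XIII, which tissue macrophages also make, measured 10.24, 9.61, 9.67 and 9.74 and then 9.10, 8.06, 8.99 and 8.94 (change -1.04 ± 0.25, adjusted p = 0.0278). Replicate 2 at 7 DPI was the lowest array. The call was lost without it (-0.80) and without replicate 1 (-0.90), 3 (-1.09) or 4 (-1.07) at 3 DPI.

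The genes called higher at 7 DPI were fewer and changed less. Of the 22, 13 were more than 2-fold above both contralateral means at 7 DPI and 9 lay within 2-fold of one of them. Pappa, a secreted protease that cleaves the insulin-like growth factor binding proteins Igfbp4 and Igfbp5 and thereby frees the growth factor, measured 6.04, 6.12, 5.81 and 5.70 at 3 DPI and 8.72, 8.50, 8.05 and 7.04 at 7 DPI. The groups did not overlap, although the 7 DPI arrays were spread over more than 1 unit (change 2.16 ± 0.26, 4.47-fold, adjusted p = 1.04e-04). Of 15 genes of the insulin-like growth factor axis, Pappa was the only one that rose and none fell, with a median of 0.13. Igfbp4 changed by 0.37, Igfbp5 by -0.40 and Igf1 by 0.35, none past the threshold.

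Sema3e, a secreted semaphorin that repels vessels and axons through the receptor plexin D1, measured 7.64, 8.07, 7.65 and 7.78 at 3 DPI and 9.07, 9.60, 9.57 and 9.67 at 7 DPI, against 5.83 to 6.67 in the contralateral nerves. The injured groups stood apart from each other and from the uninjured nerves (change 1.69 ± 0.15, 3.23-fold, adjusted p = 3.00e-06). Its receptor gene Plxnd1 changed by 0.21, which did not pass. Among 45 semaphorin, ephrin and Slit genes with their receptors, 3 rose, Sema3e, the ephrin receptors Epha4 (0.87) and Epha3 (0.53), and none fell, with a median of 0.05.

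Other membrane and secretory genes rose to above the uninjured level. Pcdh20, a protocadherin of cell adhesion, measured 7.01, 7.22, 6.93 and 7.24 at 3 DPI and 8.91, 8.76, 8.64 and 8.68 at 7 DPI. Its 3 DPI arrays were close to the contralateral range of 6.52 to 6.93, so most of the rise came after 3 DPI (change 1.65 ± 0.10, adjusted p = 3.94e-08). Rab3b, a small GTPase of regulated secretion, measured 8.34, 7.92, 7.71 and 7.81 and then 9.23, 9.79, 9.36 and 10.03 (change 1.66 ± 0.17, adjusted p = 2.32e-05). Or2h15, an olfactory receptor gene, rose by 1.80 ± 0.20, from 5.91, 6.29, 5.28 and 5.49 to 7.79, 7.40, 7.63 and 7.33. Each of these 3 genes had arrays that did not overlap.

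Kiaa0040 rose by 1.52 ± 0.10, from 6.63, 6.51, 6.54 and 6.46 to 8.10, 7.81, 8.35 and 7.98, and lay within its contralateral range of 6.33 to 6.85 at 3 DPI. Tmem196, a membrane protein, rose by 1.24 ± 0.14, and Pth2r, a receptor of the parathyroid hormone family, by 1.16 ± 0.16. Ano4, a membrane protein of the anoctamin family of scramblases and chloride channels, rose by 1.05 ± 0.17. It was under 2-fold without replicate 1 (0.98) or 2 (1.00) at 7 DPI. Slitrk6, a neuronal adhesion protein that promotes synapse formation, rose by 1.08 ± 0.18 and by 0.90 without replicate 1 and 0.91 without replicates 1 and 4 at 7 DPI, and Cabcoco1, a centrosome protein, by 1.10 ± 0.14 and by 0.99 without replicate 2 at 7 DPI.

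Ptn, pleiotrophin, a heparin-binding growth factor that promotes neurite growth, measured 9.25, 9.36, 9.0 and 9.37 at 3 DPI and 10.17, 10.35, 10.29 and 10.21 at 7 DPI. At 3 DPI replicate 3 lay below the contralateral range of 9.19 to 9.72 and the other arrays within it, and all 7 DPI arrays lay above it (change 1.01 ± 0.11, adjusted p = 2.78e-05). The change was 0.93 without replicate 3 at 3 DPI and 0.98 without replicate 2 at 7 DPI. Socs2, an inhibitor of growth hormone signalling, rose by 1.04 ± 0.12 (0.91 without replicate 2 at 3 DPI), and 2 enzymes of small nitrogen compounds also rose. Gamt, which makes creatine, rose by 1.02 ± 0.11 and Tmlhe, which starts carnitine synthesis, by 1.01 ± 0.11. Both were under 2-fold when any of several single arrays was left out (lowest 0.96 for Gamt and 0.94 for Tmlhe). With cyclic loess Ptn, Socs2, Gamt and Tmlhe were each under 2-fold. So were Ptn and Tmlhe with median centring, and Tmlhe with array weights.

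Matrix genes called higher were Cilp, Spon1 and Hmcn1. Cilp, a cartilage matrix protein that binds growth factors, measured 6.87, 7.61, 7.23 and 7.50 at 3 DPI and 9.33, 8.68, 7.86 and 8.48 at 7 DPI (change 1.28 ± 0.31, adjusted p = 0.0298). The contralateral arrays spread from 6.03 to 7.79, and the call was lost without any 1 of 6 injured arrays (changes of 1.03 to 1.35) and without replicates 1 and 4 at 7 DPI together (0.96). Spon1, F-spondin, an axon guidance protein of the matrix, measured 7.02, 7.95, 6.88 and 7.52 and then 9.16, 8.67, 7.67 and 8.24, with overlap (1.09 ± 0.26, adjusted p = 0.0269). Its call was lost without replicate 1 (0.99) or 3 (0.94) at 3 DPI and replicate 1 (0.85) or 2 (1.02) at 7 DPI, and without replicates 1 and 4 at 7 DPI together (0.83). In a limma fit of the 8 injured arrays alone Spon1 did not pass either (adjusted p = 0.114). Hmcn1, a hemicentin of basement membranes, rose by 1.04 ± 0.15, and by 0.87 without replicate 1 and 0.85 without replicates 1 and 4 at 7 DPI. Esm1, endocan, a proteoglycan of endothelial cells, changed by 1.01 ± 0.21 with overlap, and was under 2-fold without any 1 of 5 arrays (0.86 to 0.97) and without replicates 1 and 4 at 7 DPI together (0.81). With array weights Hmcn1 and Esm1 were under 2-fold (0.99 and 0.96), as was Esm1 with median centring (0.99).

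Of 34 collagen genes, 4 rose and none fell, with a median of 0.15 against 0.13 in the contralateral nerves. Those that rose were Col12a1 (0.96) and Col14a1 (0.63), which coat collagen fibrils, Col20a1 (0.57) and Col26a1 (0.53), whereas the fibril-forming chains Col1a1 (0.01) and Col3a1 (0.16) did not pass. Among 30 matrix proteases and inhibitors, the collagenase Mmp13 (0.69), Mmp15 (0.68), Adamts5 (0.64) and Adamts12 (0.53) rose and the inhibitor Timp1 (-0.41) fell. For 45 matrix glycoproteins the median was 0.08, with Cilp called higher and Spp1 called lower.

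Genes of the interferon response mostly had changes above 0, but unevenly between arrays. Of 28 measured, none was called, 26 had a change above 0 and the median was 0.37, against 0.25 in the contralateral nerves, and Gbp5, a guanylate binding protein, was the only one that rose (0.87 ± 0.12, adjusted p = 3.33e-04). Its arrays measured 7.38, 7.68, 7.58 and 7.73 at 3 DPI and 8.56, 8.49, 8.13 and 8.66 at 7 DPI, without overlap. The list score was 0.77, 0.04, 0.31 and 1.40 on the 7 DPI arrays, and the antiviral gene Mx1 showed the same spread, with 8.33, 6.37, 7.14 and 9.71 at 7 DPI against 6.07, 6.14, 6.36 and 6.97 at 3 DPI. Mx1 changed by 1.50 ± 0.49, which did not pass (adjusted p = 0.102). Without replicate 2 at 7 DPI, the lowest, 2 genes of the list were called. The scores of replicates 2 and 3 at 7 DPI lay within the 3 DPI range of -0.03 to 0.51.

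Gbp6, another guanylate binding protein, is induced by interferon gamma. It measured 7.83, 7.44, 6.68 and 7.81 at 3 DPI and 9.12, 7.98, 8.94 and 9.63 at 7 DPI (change 1.48 ± 0.32, adjusted p = 0.0154), with replicate 2 only slightly above the 3 DPI arrays. It did not pass without replicate 3 at 3 DPI (1.22, adjusted p = 0.054), without replicates 1 and 4 at 7 DPI (1.02, adjusted p = 0.182) or in a fit of the 8 injured arrays alone (adjusted p = 0.056). Ms4a4c, a membrane protein of immune cells, had low levels of 2.55, 3.28, 3.42 and 3.23 and then 4.16, 3.67, 3.71 and 5.33 (1.10 ± 0.28, adjusted p = 0.0378). Its rise was 0.73 without replicate 4 at 7 DPI, and it was not called without replicate 1 (0.90), 2 (1.15) or 4 (1.13) at 3 DPI or replicate 1 at 7 DPI (1.12). Without replicates 1 and 4 at 7 DPI together its change was 0.57. In the fit of the 8 injured arrays alone Ms4a4c did not pass (adjusted p = 0.138). The part of the 2 arrays with the highest interferon scores in these results was not tested beyond leaving them out.

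Cxcl9, a chemokine that draws activated T cells through the receptor Cxcr3, measured 8.66, 8.25, 7.73 and 8.24 at 3 DPI and 9.10, 9.55, 9.13 and 9.60 at 7 DPI. Here the 7 DPI replicates with low interferon scores were as high as the others (change 1.13 ± 0.22, adjusted p = 6.57e-03), the contralateral range of 8.05 to 9.02 overlapped the 3 DPI arrays, and the change was 0.97 without replicate 3 at 3 DPI. Its relatives Cxcl10 (0.56 ± 0.31), Cxcl11 (0.66 ± 0.18) and the receptor Cxcr3 (0.31 ± 0.12) did not pass. Of 34 chemokine genes, Cxcl9 was the only one that rose, Cxcl1 fell (-0.47) and the median was -0.00, while 2.23% of all genes rose and 1.78% fell. The Cxcl9 promoter is shown for TTCNNNGAA, the letters of the gamma-activated site bound by Stat factors, a motif chosen after Cxcl9 was seen and marked in capitals with its first base 32 after the start (chr14:16006916-16007215, + strand, GRCr8).
Cxcl9: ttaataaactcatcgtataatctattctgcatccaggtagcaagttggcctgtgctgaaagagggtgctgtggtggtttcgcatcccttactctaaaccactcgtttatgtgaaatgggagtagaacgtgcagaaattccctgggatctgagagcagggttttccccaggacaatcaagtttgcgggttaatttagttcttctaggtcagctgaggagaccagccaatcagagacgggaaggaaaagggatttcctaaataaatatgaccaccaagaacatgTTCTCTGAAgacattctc
These letters, on either strand, were in 7.83% of all promoters, in 4 of 18 of the higher genes (Cxcl9, Kiaa0040, Sema3e and Tmem196) and in none of 25 of the lower genes. The count includes Cxcl9, after which the motif was chosen, so it too only describes letters. Another motif, searched for the interferon response genes, was in 2.62% of all promoters and, among the matched promoters of called genes, only in that of Esm1. Its letters differ from those of the interferon-stimulated response element, which was not searched.

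Genes of cell division had small changes below 0, few of which passed. Of 55 genes of mitosis, none was called and 54 had a change below 0, with a median of -0.21, and Plk1, a mitotic kinase (-0.56), Cdca2 (-0.52) and Espl1, the separase (-0.28), fell. Ki67, encoded by Mki67, measured 11.04, 10.95, 10.81 and 10.93 at 3 DPI and 10.68, 10.51, 10.82 and 10.39 at 7 DPI, a change of -0.33 ± 0.15 that did not pass. In the contralateral nerves the same list had a median of 0.52, 4 of its genes passed, and Mki67 rose by 0.95 (adjusted p = 0.0235). The change between the days differed between injured and contralateral nerves for 23 of the 55 genes, against 1.72% of all genes.

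All 38 measured genes of DNA replication had a change below 0 in the injured nerves, with a median of -0.23, against 0.25 in the contralateral nerves. None was called, and those that fell were Ccne2, cyclin E2 (-0.90), the helicase subunit Mcm5 (-0.53), the origin licensing factor Cdc6 (-0.51) and Clspn, a checkpoint adaptor (-0.44). The mitosis score was 2.04, 1.98, 1.62 and 1.98 at 3 DPI and 1.73, 1.64, 1.74 and 1.62 at 7 DPI, where replicate 3 at 3 DPI overlapped the later arrays. On all injured arrays it stayed above the contralateral arrays, which ran from -0.38 to 0.33. Cdkn1a, the cyclin-dependent kinase inhibitor p21, rose (0.56).

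Macrophage genes had small changes below 0, of which 1 passed. Of 29 measured, none was called, 27 had a change below 0 and the median was -0.29. Cd163, a scavenger receptor for hemoglobin bound to haptoglobin, was the only one that fell, from 8.82, 8.37, 8.48 and 8.32 to 8.10, 7.34, 7.56 and 7.82 (change -0.79 ± 0.17, adjusted p = 0.0149). The list score was 1.45, 1.31, 1.34 and 1.57 at 3 DPI and 1.34, 0.72, 1.01 and 1.45 at 7 DPI, so the groups overlapped. Without replicates 1 and 4 at 7 DPI the median was -0.57 and 1 gene was called.

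**Figure D4:**
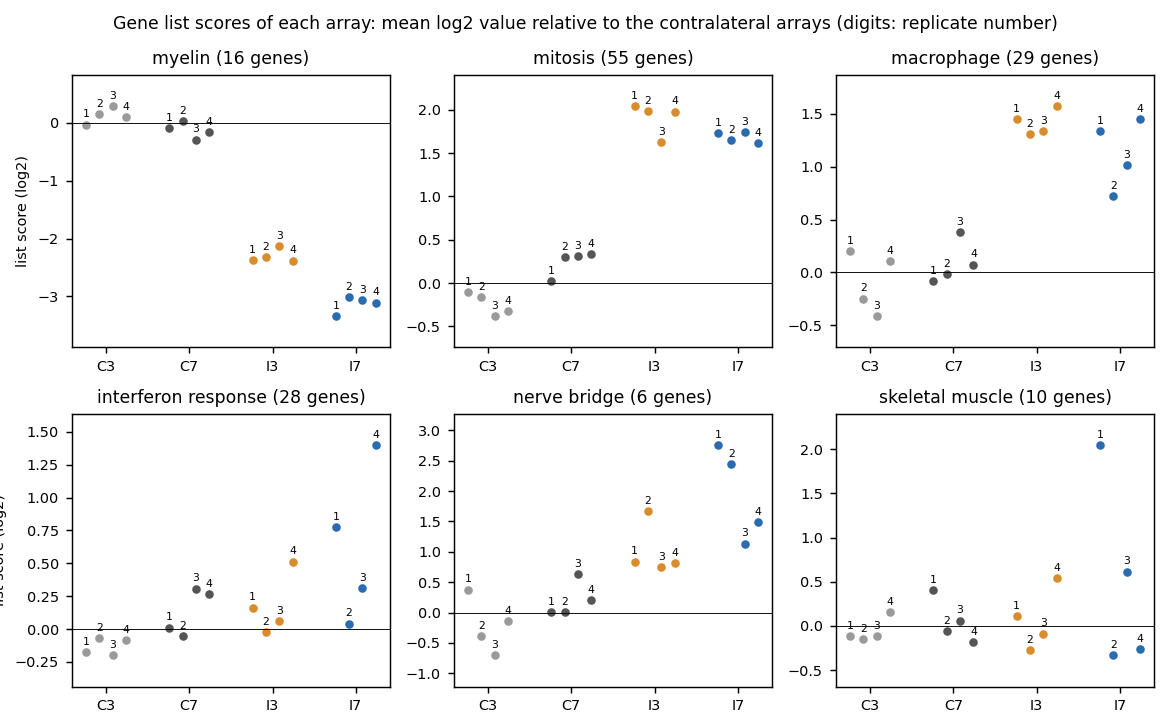
Score (vertical axis: mean log2 level relative to the contralateral arrays' mean) of 6 gene lists on each of the 16 arrays, with 1 point per array. Myelin scores are lowest at 7 DPI, mitosis and macrophage scores are above the contralateral arrays on both days, and single 7 DPI arrays stand out for interferon response (1.40) and skeletal muscle genes (2.05).

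Of 12 general Schwann cell genes measured, Scn7a fell and 3 rose, Art3, a mono-ADP-ribosyltransferase family member (0.79 ± 0.11), Dhh, and Cdh19, a cadherin (0.62 ± 0.10), with a median of 0.20. Art3 measured 10.35, 10.49, 10.06 and 10.33 at 3 DPI and 10.83, 11.04, 11.30 and 11.25 at 7 DPI, and so came closer to the contralateral range of 11.28 to 11.62. Of 23 genes of repair Schwann cells, 3 fell (Ucn2, Shh and Gdnf) and 3 rose, the transcription factor Sox2 (0.69 ± 0.17), the adhesion molecule Mcam (0.57 ± 0.10) and the injury-induced factor Atf3 (0.51 ± 0.11). Sox2 measured 8.61, 8.58, 8.30 and 8.68 and then 9.04, 9.47, 9.37 and 9.06, without overlap. Of 22 Schwann cell transcription factor genes, Sox2 was the only one that passed, beside 4.02% of all genes.

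Among the growth factors that the study discusses, Angpt1 rose, Gdnf fell and 6 did not pass. Angpt1, angiopoietin, a ligand of the endothelial receptor Tek, measured 6.57, 6.94, 6.37 and 6.55 at 3 DPI and 7.76, 7.49, 7.72 and 7.35 at 7 DPI, without overlap and above a contralateral range of 6.02 to 6.45. It rose by 0.97 ± 0.11 (adjusted p = 7.30e-05), just under the fold minimum, which it passed without replicate 2 at 3 DPI (1.08) and without replicate 2 (1.00) or 4 (1.05) at 7 DPI. Tek itself changed by -0.07. Gdnf, a neurotrophic factor of repair Schwann cells, fell by 0.67 ± 0.14, from 7.31, 7.40, 7.44 and 7.83 to 6.91, 6.83, 6.88 and 6.70, and stayed above the contralateral range of 5.63 to 6.43.

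Receptors of Gdnf moved in opposite directions. Gfra1, its binding receptor, rose by 0.81 ± 0.09 (adjusted p = 3.72e-05), with 11.11, 11.09, 11.07 and 11.17 at 3 DPI and 11.64, 12.07, 11.96 and 12.01 at 7 DPI. Ret, the signalling receptor kinase, fell by 0.97 ± 0.19, from 7.79, 7.48, 7.67 and 7.45 to 6.31, 6.52, 6.39 and 7.31, with replicate 4 at 7 DPI near the earlier arrays. The remaining ligands did not pass: the eosinophil chemokine Ccl11 changed by 0.17, the lymphatic growth factor Vegfc by 0.16, the neurotrophins Bdnf by 0.31 and Ntf3 by -0.01, and the cytokines Lif by 0.13 and Il6 by 0.33. Of 21 genes of the vascular growth factor families, Angpt1, Angptl2 (0.74) and Pdgfd (0.59) rose and Vegfb (-0.67) fell.

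Markers of other cells that the nerve pieces could hold showed no called gene in any of the 15 cell type lists except Scn7a among the Schwann cell genes. T cell genes had a median of 0.11 and none of 18 passed. In the B cell list, the antibody joining chain Jchain (0.90) and the complement receptor Cr2 (0.43) rose, while Cd79a changed by -0.05. Jchain measured 4.74, 4.77, 5.14 and 4.85 at 3 DPI and 6.58, 5.35, 5.10 and 6.07 at 7 DPI, with overlap and highest on replicates 1 and 4. Cr2 lay below the lower quartile of all levels, 5.73, with means of 4.73 at 3 DPI and 5.16 at 7 DPI. No gene passed among 12 neutrophil, 9 mast cell, 13 endothelial, 16 adipocyte, 4 red blood cell or 10 skeletal muscle genes. The defining muscle genes were high on replicate 1 at 7 DPI alone, where Acta1 measured 10.19, against 6.67, 7.69 and 6.80 on the others, and Ckm 9.31, against 7.16, 7.70 and 7.03. Among 11 mural genes Tagln, a smooth muscle actin-binding protein, fell by 0.84 ± 0.14, while it changed by 0.77 in the contralateral nerves, which did not pass. Among 9 perineurial genes the tight junction gene Cldn1 fell (-0.75) and Moxd1 rose (0.55), with 8 of 9 below 0 and a median of -0.38.

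The score of 6 genes of nerve bridge fibroblasts was 0.84, 1.67, 0.74 and 0.81 at 3 DPI and 2.75, 2.45, 1.13 and 1.48 at 7 DPI in the injured nerves. The median change was 0.83 and all 6 changes were above 0, but none passed. In the contralateral nerves the median change was 0.37, and the scores ran from -0.70 to 0.38 at 3 DPI and from 0.00 to 0.63 at 7 DPI. For none of the 6 did the change differ between injured and contralateral nerves. Postn, the matrix protein periostin, measured 9.92, 11.44, 9.79 and 10.08 and then 12.90, 12.57, 11.08 and 11.50 (1.70 ± 0.54, adjusted p = 0.0907), and Tnn, tenascin N, measured 5.79, 7.07, 5.23 and 5.34 and then 9.18, 8.77, 5.96 and 6.46 (1.74 ± 0.57, adjusted p = 0.103). The contralateral change was 1.06 for Postn and 0.31 for Tnn. Injured replicate 2 overlapped the later arrays at 3 DPI, and injured replicates 3 and 4 were the lower pair at 7 DPI. Without replicate 3 at 7 DPI, whose score was the lowest of that day, 2 of the 6 genes were called. The scores of replicates 3 and 4 at 7 DPI lay below that of replicate 2 at 3 DPI. Where along the distal nerve each piece was cut is not given in the sources used here, and its part in these values was not tested.

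Across the 53 gene lists, 41 held no called gene, and of the 58 called genes 17 were on a list and 41 on none. Lists without a called gene whose median lay near 0 included Notch (0.02), Wnt (-0.01), fibroblast growth factor (-0.04), neuregulin and epidermal growth factor genes (-0.05) and ribosome biogenesis (0.02). Single members still passed the adjusted p. Sfrp5 of the Wnt list fell (-0.84), and in the fibroblast growth factor list Fgf23 rose (0.76) and Fgfr2 fell (-0.43). No member of the other lists just named rose or fell. In the list of the integrated stress response, Atf4 (0.36), Asns (0.52) and Ddit3 (0.27) rose, none of 22 fell and the median was 0.13.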

How the data were processed

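Total RNA of rat sciatic nerve was measured on 16 Rat Gene 2.0 ST arrays of Affymetrix, 4 per group. The authors deposited log2 values made with RMA in the oligo package (version not given in the sources used here), which corrects background, applies quantile normalisation and summarises probe sets. Quantile normalisation forces like distributions on all arrays and cannot show a shift of most genes together. Without scanner output or detection calls in use, levels were not judged against background, and precision is limited by the number of arrays.

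Of 36685 probe sets, 18511 carried 1 gene symbol in the platform annotation, 575 several and 17599 none. Only the first kind was used, with the probe set of the highest mean over the 16 arrays for the 291 genes that had several, which left 18166 genes. The test was limma 3.58.1 (R 4.3.3), 1 fit of 4 group means without a block (12 residual and 4.08 prior degrees of freedom), with Benjamini-Hochberg adjustment over all genes. The thresholds, an adjusted p of 0.05 and 2-fold, were set in the study for its arrays of neurons. The scripts were tested on simulated data, and tables and plots were made with Python 3.11.15, pandas 2.3.3 and matplotlib 3.10.9.

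The genes described and the 53 gene lists were chosen with earlier results of these data known. By rule, named genes were the 20 largest called increases and decreases without overlap between arrays, placeholder symbols excepted, at most 6 called genes per list, growth factors that the study discusses (1 of them is not reported here) and up to 3 of the highest markers per cell type. This gave 95 genes. The other 15 called genes, and all uncalled genes, families and motifs named besides these, were chosen after their values were seen. Promoter sequences are from RefSeq (GRCr8), matched by gene for 43 of the 58 called genes.

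Alternatives were a fit of the compared groups alone, a replicate block, the mean of a gene's probe sets or each probe set by itself, leaving out the dimmest 30% of genes, median centring, cyclic loess, trend and robust settings, array weights, no fold minimum, leaving out each array, and, added after seeing the data, leaving out replicates 1 and 4 of injured 7 DPI.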

Additional observations from a re-analysis of the deposited data

Results flagged for a closer look

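Of 326 groups of 4 arrays tested, 17 had an array far from the other 3. Chance gives about 1 in 20, so this count is near the share that chance gives, and any array listed here may stand apart by chance. Among called genes these were Spmip7 on injured 3 DPI replicate 4 (8.06), Cabcoco1 on injured 3 DPI replicate 1 (7.67), and, at injured 7 DPI, Gldn (5.79) and Atp6v0d2 (6.20) on replicate 4, Sema3e (9.07) and Sostdc1 (7.45) on replicate 1 and F13a1 (8.06) on replicate 2. Among markers they were Fcer1g on injured 3 DPI replicate 4 (11.75), Fcrla on injured 3 DPI replicate 3 (6.65), S100b on injured 7 DPI replicate 1 (11.60), Emcn on injured 7 DPI replicate 3 (9.31) and Slc4a1 on injured 7 DPI replicate 4 (6.26). Among list scores, replicate 3 at injured 3 DPI stood apart for mitosis (1.62) and for D-type cyclins and kinase inhibitors (0.20), replicate 1 at injured 3 DPI for matrix glycoproteins (-0.12), replicate 2 at injured 3 DPI for nerve bridge genes (1.67) and replicate 1 at injured 7 DPI for neutrophil genes (0.15).

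For 39 of the 58 genes the change between the days differed by at least 2-fold between injured and contralateral nerves (limma, adjusted p up to 0.0395). The injured change by which the 58 were chosen is part of this difference. The injured minus contralateral change was lowest for Tyrp1 (-3.54), Clca4l (-3.28), Syt4 (-3.26), Pmp2 (-2.86), Hmox1 (-2.48), Drp2 (-2.22) and Cryab (-2.19). It was between -1.95 and -1.31 for Cnmd (-1.95), Spmip7 (-1.89), Ucn2 (-1.81), Maob (-1.80), Ncmap (-1.54), Atp6v0d2 (-1.47), Gldn (-1.43), Padi2 (-1.38), Scn7a (-1.37), Spp1 (-1.34), Shh (-1.34), Tatdn1 (-1.33), Calr4 (-1.31) and C1qtnf9 (-1.31). Smaller differences were found for Mal (-1.28), Vamp5 (-1.19), Samd5 (-1.18), Elovl6 (-1.18), Gjc3 (-1.14), Elovl7 (-1.12), Rdh5 (-1.05) and Sostdc1 (-1.03). The change was higher in the injured nerve for Or2h15 (1.90), Pappa (1.85), Rab3b (1.80), Pcdh20 (1.59), Sema3e (1.37), Pth2r (1.27), Ano4 (1.27), Kiaa0040 (1.24), Tmem196 (1.24) and Gamt (1.19).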

How the results depend on the processing

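The 58 called genes in the injured nerve numbered 730 without the fold minimum (406 higher and 324 lower), and leaving out single arrays gave 52 to 64 in all, 15 to 26 higher and 33 to 41 lower. Of the 58, 37 kept their call under every alternative run (29 lower and 8 higher), 21 lost it under at least 1 (7 lower and 14 higher), and none changed sign. Among the genes named by rule, 1 uncalled gene gained a call, Angpt1, while genes named otherwise were followed only through the counts of their lists. Left out singly, arrays removed between 3 and 10 of the 58 calls, and injured 7 DPI replicates 1 and 4 together removed 11. Of the myelin genes, 5 were called whichever array was left out (5 to 5), with medians from -0.68 to -0.51.

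In the contralateral nerves, 2 genes (2 higher and 0 lower) became 0 (0 higher) in a fit of those groups alone, 5 without the dimmest 30% of genes (4 higher and 1 lower) and 8 with array weights (7 higher and 1 lower), and ranged from 0 to 16 without single arrays (0 to 15 higher, 0 to 1 lower). For the difference between the nerves, 70 genes ranged from 58 to 97 (15 to 29 higher, 41 to 68 lower), and the 21 with a higher change became 34 without injured 7 DPI replicates 1 and 4. The cause of these shifts was not tested. Of 901 list medians recomputed, 26 moved by more than the spread between arrays, and of 901 list counts, 31 moved.

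Arrays of injured 3 and 7 DPI with the same replicate number did not deviate together (correlations of -0.04, 0.06, 0.01 and -0.06 for replicates 1 to 4), so the number does not pair them. Between injured and contralateral nerves of the same number and day, the correlations ran from -0.06 to 0.22 at 3 DPI and from -0.08 to 0.17 at 7 DPI, not all over 0.1. With a replicate block, 59 genes were called in the injured nerve and none of the 58 was lost, and in the contralateral nerves 1 gene (1 higher) was called.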

Other observations

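Several gene families were counted after seeing the data, and their changes between 3 and 7 DPI in the injured nerve were under 2-fold. Over all genes, 2.23% rose and 1.78% fell. The genes of cytosolic ribosomal proteins were taken by a pattern of symbols, which also admits symbols of related copies. Of these 134 genes, 118 had a change below 0 with a median of -0.18, against -0.01 in the contralateral nerves, and 9 fell, among them Rps28 (-0.43), Rplp2 (-0.40) and Rpsa (-0.34). None rose and none was called. Of 57 translation initiation and elongation factors, 4 fell (Eif3f by 0.44) and 1 rose, Eif5a2 (0.49), with 30 below 0, 27 above and a median of -0.02. Of 38 subunits of the respiratory complexes that use oxygen and make ATP, 4 fell, Cox5a (-0.36), Cox5b (-0.36), Atp5f1d (-0.29) and Atp5mc3 (-0.26), with a median of -0.10. In contrast, 175 of 243 zinc finger genes with a Zfp symbol had a change above 0, with a median of 0.08 against 0.00 in the contralateral nerves, and 14 rose while 1 fell, Zfp367 (-0.63). Of 11 annexins, calcium-dependent membrane-binding proteins, 4 rose, Anxa1 (0.44), Anxa6 (0.36), Anxa4 (0.30) and Anxa2 (0.25), and the other 7 had changes below 0 that did not pass, with a median over the family of -0.04. Members of a family share sequence, so their probes may not be independent.

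A few genes just under the 2-fold minimum were picked after their values were seen. Epas1, a hypoxia-inducible factor, measured 9.99, 9.92, 10.09 and 9.93 at 3 DPI and 9.08, 9.04, 8.77 and 9.10 at 7 DPI (change -0.98 ± 0.12, adjusted p = 1.53e-04). Sec11c, a subunit of the signal peptidase, fell by 0.97 ± 0.07, and Cdh1, E-cadherin, by 0.95 ± 0.16. None of the 352 microRNA genes with a probe set rose or fell.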
